A study of Mus musculus with 3 samples.

Results

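The 35 genes described here are genes that type I interferon induces in most cell types, listed by symbol, and they were followed in the epidermis of mice that lack cFLIP, TNF or both. All 35 had a row in the table of log2 signals, among 24570 named genes in all. Genes entered by symbol alone, with no threshold on the signals. The list was chosen with earlier results of these data known, so its counts beside all named genes are a description.

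Epidermal RNA was measured on 3 Affymetrix Mouse Gene ST arrays, 1 per genotype. cFLIP KO mice carry floxed cFLIP alleles (cFLIP fl/fl) and a tamoxifen-inducible Cre recombinase under the keratin 14 promoter (K14CreER), which acts in keratinocytes. cFLIP KO/TNF KO mice carry the same alleles and the same Cre and lack TNF in every cell (TNF-/-). TNF KO mice lack TNF in every cell, keep cFLIP and are given with no Cre. There was no wild-type array, and against TNF KO the presence of the Cre and the loss of cFLIP cannot be told apart. All were epilated and given tamoxifen on the back skin, for 3 days per the labels, and were sampled 72 h after its first application, when the epidermis was separated from the dermis by heat. The labels state that RNA of 4 animals went into each pool, and the study's methods allow a wider range of animals and of tamoxifen days. Strain, age and sex are not given in the sources used here. One sample title differs in wording from its genotype label, that of cFLIP KO/TNF KO, and the label was followed.

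Type I interferons are cytokines that bind the receptor of IFNAR1 and IFNAR2 and activate the kinases JAK1 and TYK2. These phosphorylate STAT proteins, which join IRF9 to form the complex ISGF3. ISGF3 binds interferon-stimulated response elements in the promoters of many genes, whose products sense viral RNA, degrade it, block its translation or modify other proteins. Keratinocytes respond to interferon in viral infection and after wounding.

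With 1 array per genotype there is no error between replicates, so no test was possible and no p-value is given; a gene called higher or lower is so on these arrays. The cFLIP KO array differed most from the others. On it, log2 values had an SD of 1.78 over genes, against 2.04 for cFLIP KO/TNF KO and 2.06 for TNF KO, and the SD of its difference from TNF KO was 0.68, against 0.22 for cFLIP KO/TNF KO. Exactly equal values stood on the cFLIP KO/TNF KO and TNF KO arrays for 12880 of the 24570 genes (52.4%), but for 0 of the 35 interferon genes. For Cflar, which encodes cFLIP, the log2 signal was 6.29 in cFLIP KO, 6.53 in cFLIP KO/TNF KO and 7.00 in TNF KO. Tnf had a log2 signal of 5.79 in cFLIP KO, 5.21 in cFLIP KO/TNF KO and 5.11 in TNF KO. Whether the probes of either gene lie in the deleted part is not stated in the labels or methods. The keratinocyte markers Krt5 and Krt14 had signals of at least 12.50 on every array. As deposited, all 10 keratinocyte markers lay below TNF KO in cFLIP KO, with a median of -0.46 and with Krt15 at -1.83 and Krt1 at -1.49. Their median was 0.00 in cFLIP KO/TNF KO. With a lowess trend over the signal subtracted, Krt15 (-1.20), Krt1 (-0.70) and Krtdap (-0.12) stayed below TNF KO in cFLIP KO. The others then lay above it: Krt14 (0.78), Itgb4 (0.69), Dsg3 (0.62), Itga6 (0.39), Krt5 (0.37), Trp63 (0.21) and Krt10 (0.10).

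The promoters of the interferon genes were searched for the core of the interferon-stimulated response element, because this is the sequence through which ISGF3 acts. The RefSeq table (GRCm38.p6) holds a promoter, from 250 bases before to 50 bases after a start site, for 26 of the 35 genes. The letters GAAA, followed after any 2 bases by GAAA again, searched on both strands with overlapping matches counted, were found for 13 of these 26 genes and for 1079 of all 27025 genes in the table (3.99%). A match is a run of letters and not a proven binding site, and no match says only that these letters are not in that window. Stretches of 80 bases from 9 of the 13 promoters follow, chosen because all of their matches lie before the start site. They run 5′ to 3′ on the strand of the gene, and the capitals mark the matches.
Ifit1: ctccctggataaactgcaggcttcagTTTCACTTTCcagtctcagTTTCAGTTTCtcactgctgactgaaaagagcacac
Ifit3: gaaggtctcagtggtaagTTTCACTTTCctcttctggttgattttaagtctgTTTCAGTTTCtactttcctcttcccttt
Isg15: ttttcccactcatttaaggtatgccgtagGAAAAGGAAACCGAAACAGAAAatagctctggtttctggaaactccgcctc
Rsad2: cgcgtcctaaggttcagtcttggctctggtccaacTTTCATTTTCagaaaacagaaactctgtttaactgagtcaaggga
Bst2: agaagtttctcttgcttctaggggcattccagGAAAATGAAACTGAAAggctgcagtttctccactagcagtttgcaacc
Oas1a: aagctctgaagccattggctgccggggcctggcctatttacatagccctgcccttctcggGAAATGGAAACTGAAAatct
Oas1g: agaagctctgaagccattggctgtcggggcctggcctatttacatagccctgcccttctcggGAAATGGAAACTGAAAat
Oas3: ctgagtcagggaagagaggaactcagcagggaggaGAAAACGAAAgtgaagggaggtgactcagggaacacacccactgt
Stat2: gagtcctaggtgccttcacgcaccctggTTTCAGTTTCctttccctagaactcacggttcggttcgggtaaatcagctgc

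These stretches lie at chr19:34640759-34640838 on the plus strand for Ifit1, chr19:34583355-34583434 on the plus strand for Ifit3 and chr4:156200846-156200925 on the minus strand for Isg15. Rsad2 lies at chr12:26456528-26456607 on the minus strand, Bst2 at chr8:71537555-71537634 on the minus strand and Stat2 at chr10:128270248-128270327 on the plus strand. The Oas stretches lie on the minus strand at chr5:120907526-120907605 for Oas1a, chr5:120887614-120887693 for Oas1g and chr5:120777690-120777769 for Oas3. Isg15 held 3 overlapping matches, the closest of which began 66 bases before the start, and Ifit1 held 2 that began 104 and 85 bases before it. Oas1a and Oas1g, neighbouring copies of 1 gene family, carry the same pair of overlapping matches at nearly the same distance. Ifih1, Eif2ak2 and Ddx58 held their matches just after the start, and Trim30a held matches at 2 annotated starts.

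**Figure D1:**
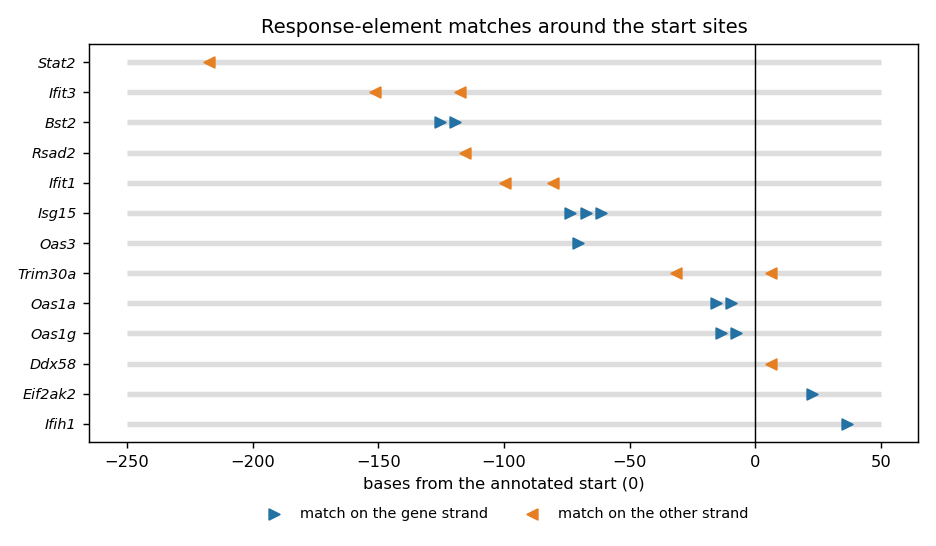
Position of each match (drawn at its middle) to the response-element core in bases from the annotated start site (x axis), for the 13 interferon genes with a match (rows). Triangles pointing right are matches on the strand of the gene and those pointing left on the other strand, grey bars are the searched windows, and the 2 windows of Trim30a are drawn in 1 row. Ifit1, Ifit3, Isg15, Rsad2, Bst2, Oas3 and Stat2 hold their matches at least 66 bases before the start.

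Most of the interferon genes were highest in cFLIP KO/TNF KO epidermis, and most were lowest in TNF KO epidermis. The cFLIP KO/TNF KO array held the highest value of the 3 for 29 of the 35 genes (82.9%), against 8.13% of all named genes, and the TNF KO array held the lowest value for 29 (82.9%), against 16.4%. The median log2 signal over the 35 genes was 6.27 in cFLIP KO, 6.96 in cFLIP KO/TNF KO and 5.34 in TNF KO. Signals spanned 3.01 to 8.32 in cFLIP KO, 3.74 to 8.83 in cFLIP KO/TNF KO and 2.77 to 7.07 in TNF KO. Only Mx1, Mx2, Oas1a and Samd9l stayed below 4.23, the median of all values, on all 3 arrays, so these 4 were dim.

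**Figure D2:**
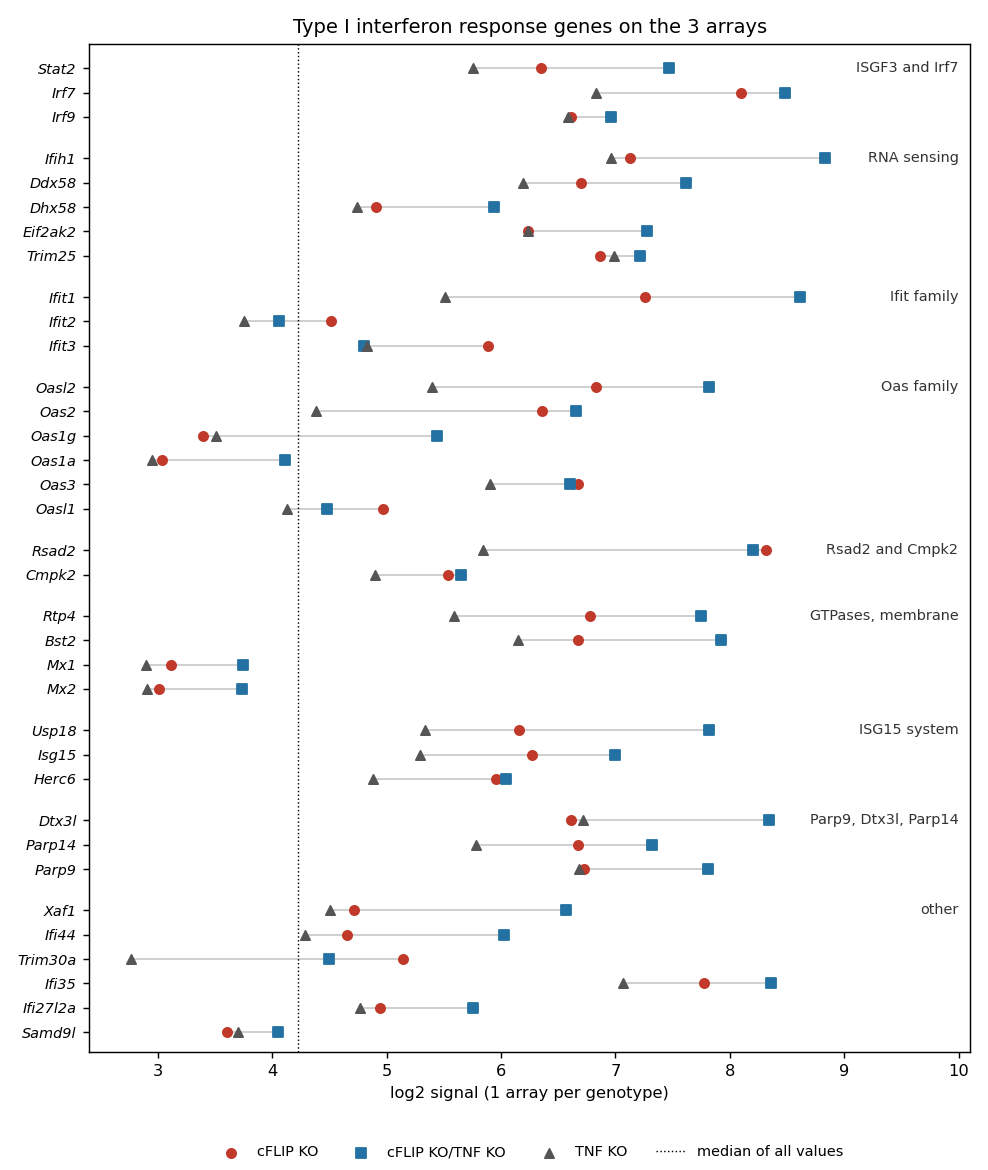
Log2 signal (x axis) of each of the 35 interferon genes (rows, grouped by role) on the cFLIP KO (circles), cFLIP KO/TNF KO (squares) and TNF KO (triangles) arrays, 1 array each. The dotted line is the median of all values at 4.23, and the square is the point furthest right for 29 of the 35 genes.

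The first comparison asked what differs when cFLIP is deleted in skin that lacks TNF. In cFLIP KO/TNF KO, 24 of the 35 interferon genes (68.6%) were at least 2-fold higher than in TNF KO, against 0.635% of all named genes, and 0 were at least 2-fold lower, against 0.22%. Their median log2 difference was 1.42, with a range of -0.03 to 3.11, and the median over all named genes was 0.00. Among the 50 named genes with the highest differences in this comparison, 14 were from the list, and among the 100 highest, 19 were. Ifit3 was the only gene of the 35 below 0.

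The second comparison asked what differs when cFLIP is deleted in skin that can make TNF. It sets cFLIP KO against TNF KO, so the arrays differ in both genes, and it shares the TNF KO array with the first. Here 9 of the 35 (25.7%) were at least 2-fold higher, against 3.87% of all named genes, and 0 were at least 2-fold lower, against 9.2%. The median log2 difference was 0.59, with a range of -0.12 to 2.47, and among the 50 highest genes 0 were from the list.

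The third comparison asked whether the interferon genes differed between the 2 cFLIP-deficient genotypes. In cFLIP KO, 13 of the 35 (37.1%) were lower by at least 2-fold than in cFLIP KO/TNF KO, against 8.14% of all named genes, and 1, Ifit3, was at least 2-fold higher, against 3.29%. The median log2 difference, cFLIP KO minus cFLIP KO/TNF KO, was -0.73, and 29 genes (82.9%) lay below 0, against 31.3% of all named genes. As deposited, a further 23.8% of all named genes were exactly equal on these 2 arrays. Under Actb 22 of the 35 lay below 0, against 15.9% of all named genes, and under reference genes 26, against 20.1%. After a lowess trend was subtracted it was 24, against 54.8%, and after repeated quantile normalization 23, against 56.7%, so the excess was smaller there. Irf7, Oas2, Irf9, Trim25 and Herc6 were among the genes whose sign turned. The split between 1 higher and 13 lower became 4 higher and 5 lower when the arrays were scaled by Actb, 1 and 7 when they were scaled by reference genes, and 1 and 8 after a lowess trend was subtracted or quantile normalization was repeated.

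**Figure D3:**
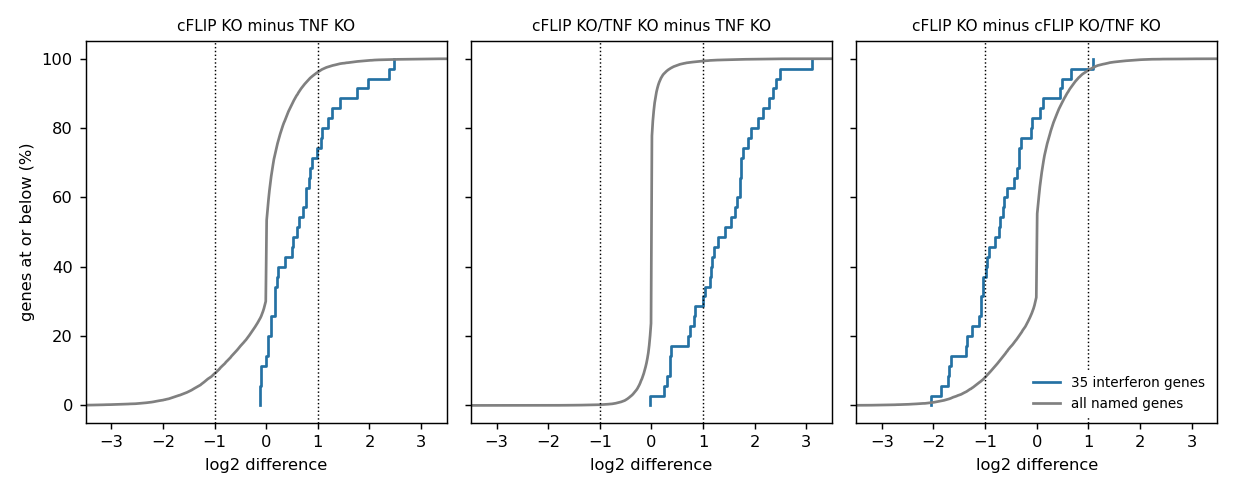
Share of genes in percent (y axis) at or below each log2 difference (x axis), for the 35 interferon genes (blue steps) and all 24570 named genes (grey), in the 3 comparisons; dotted lines mark 2-fold. The blue line lies furthest to the right of the grey one for cFLIP KO/TNF KO minus TNF KO, where 24 of 35 genes lie past the right dotted line, and lies left of it for most of cFLIP KO minus cFLIP KO/TNF KO.

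Of the transcription factors, Stat2 and Irf7 were higher in both cFLIP-deficient genotypes, and Irf9 differed little. Stat2, the ISGF3 subunit that carries its activation domain, had a log2 signal of 6.35 in cFLIP KO, 7.47 in cFLIP KO/TNF KO and 5.75 in TNF KO. Irf7, which drives the second wave of interferon genes, had 8.10 in cFLIP KO, 8.48 in cFLIP KO/TNF KO and 6.83 in TNF KO. The differences from TNF KO were thus 0.59 in cFLIP KO epidermis and 1.71 in cFLIP KO/TNF KO for Stat2, and 1.27 and 1.65 in the same order for Irf7. Irf9, the DNA-binding subunit of ISGF3, stood at 6.61 in cFLIP KO, 6.96 in cFLIP KO/TNF KO and 6.59 in TNF KO. The promoter window of Stat2 holds a match of its own, 222 bases before the start.

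The 3 cytoplasmic RNA sensors were at least 2-fold higher than TNF KO in cFLIP KO/TNF KO and within 2-fold of it in cFLIP KO. Ifih1, which encodes MDA5, a sensor of long double-stranded RNA, had a log2 signal of 7.13 in cFLIP KO, 8.83 in cFLIP KO/TNF KO and 6.96 in TNF KO. Ddx58, which encodes RIG-I, a sensor of RNA with a triphosphate end, had 6.70 in cFLIP KO, 7.61 in cFLIP KO/TNF KO and 6.20 in TNF KO. Dhx58, a related regulator of both, had 4.91 in cFLIP KO, 5.94 in cFLIP KO/TNF KO and 4.74 in TNF KO. In log2 difference from TNF KO, these 3 were 1.87, 1.42 and 1.20 higher in cFLIP KO/TNF KO and 0.17, 0.50 and 0.17 higher in cFLIP KO. Under the other scalings Ifih1 reached 0.77 and Ddx58 0.94 in cFLIP KO. Eif2ak2, the kinase PKR that blocks translation on double-stranded RNA, was listed at 6.24 in both cFLIP KO and TNF KO, an exactly equal value, and at 7.27 in cFLIP KO/TNF KO. Trim25, a ubiquitin ligase that helps RIG-I to signal, differed least of the 5, with 6.87 in cFLIP KO, 7.22 in cFLIP KO/TNF KO and 6.98 in TNF KO.

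The 3 Ifit genes, whose products bind foreign RNA, did not move together. Ifit1 had the largest difference of the list, with a log2 signal of 7.26 in cFLIP KO, 8.62 in cFLIP KO/TNF KO and 5.51 in TNF KO. It was 8.62-fold higher in cFLIP KO/TNF KO and 3.36-fold higher in cFLIP KO epidermis than in TNF KO, which placed it 5th of 24570 named genes in the first of these differences. Ifit3 ran the other way, with 5.89 in cFLIP KO, 4.80 in cFLIP KO/TNF KO and 4.83 in TNF KO. Ifit2 was dimmer and had 4.52 in cFLIP KO, 4.06 in cFLIP KO/TNF KO and 3.75 in TNF KO. Ifit1 and Ifit3 both hold a pair of matches to the response element in the stretches printed above, and their differences, cFLIP KO minus cFLIP KO/TNF KO, were -1.36 and 1.09. Ifit3 has a near-identical copy, Ifit3b, which was not analysed here, and how probes shared by such copies were treated is not stated in the labels or methods.

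The Oas genes encode oligoadenylate synthetases, which make the messenger that activates RNase L, or, for Oasl1, a relative without that activity. Of these, 4 of the 6 were higher by at least 2-fold in cFLIP KO/TNF KO than in TNF KO. Oas2 had a log2 signal of 6.35 in cFLIP KO, 6.65 in cFLIP KO/TNF KO and 4.38 in TNF KO. Oasl2, a family member that binds RNA, had 6.83 in cFLIP KO, 7.82 in cFLIP KO/TNF KO and 5.40 in TNF KO. Both were also at least 2-fold higher in cFLIP KO epidermis than in TNF KO. Oas1g was at least 2-fold above TNF KO in cFLIP KO/TNF KO only, with 3.39 in cFLIP KO, 5.44 in cFLIP KO/TNF KO and 3.51 in TNF KO. Oas1a, dim on all 3 arrays, followed the same order of cFLIP KO/TNF KO over the others, with 3.04 in cFLIP KO, 4.11 in cFLIP KO/TNF KO and 2.95 in TNF KO. These 2 paralogs carry nearly identical promoter stretches and similar coding sequence, and their signals may not be fully separate. Oas1g was dim in cFLIP KO and TNF KO. Oas3 had 6.67 in cFLIP KO, 6.60 in cFLIP KO/TNF KO and 5.90 in TNF KO, and its difference between the first of these values and the second, 0.07, became 0.40 to 0.63 under the other scalings. Oasl1, a repressor of Irf7 translation in mice, was highest in cFLIP KO, with 4.97 in cFLIP KO, 4.48 in cFLIP KO/TNF KO and 4.12 in TNF KO.

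Rsad2, which encodes viperin, an enzyme that makes a chain-terminating nucleotide, was high in both cFLIP-deficient genotypes. Its log2 signal was 8.32 in cFLIP KO, 8.20 in cFLIP KO/TNF KO and 5.84 in TNF KO, so it was 5.55-fold higher in cFLIP KO and 5.12-fold higher in cFLIP KO/TNF KO than in TNF KO. Its direct neighbour Cmpk2, a mitochondrial nucleotide kinase, had 5.54 in cFLIP KO, 5.65 in cFLIP KO/TNF KO and 4.90 in TNF KO. The difference of cFLIP KO from cFLIP KO/TNF KO was 0.12 for Rsad2 and -0.11 for Cmpk2 as deposited, and it lay between 0.46 and 0.77 for Rsad2 and between -0.06 and 0.45 for Cmpk2 under the other scalings.

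Of 4 membrane protein and GTPase genes, Bst2 and Rtp4 were at least 2-fold higher than TNF KO in cFLIP KO/TNF KO, and only Rtp4 passed 2-fold in cFLIP KO. Bst2, which encodes tetherin, a protein that holds budding virus at the cell surface, had a log2 signal of 6.67 in cFLIP KO, 7.92 in cFLIP KO/TNF KO and 6.15 in TNF KO. Rtp4, a chaperone of receptors, had 6.78 in cFLIP KO, 7.74 in cFLIP KO/TNF KO and 5.59 in TNF KO. The antiviral GTPase genes Mx1 and Mx2 were dim, Mx1 at 3.12 in cFLIP KO, 3.75 in cFLIP KO/TNF KO and 2.90 in TNF KO, and Mx2 at 3.01, 3.74 and 2.91 in the same order. Many inbred mouse strains carry defective Mx genes, and the strain is not given here.

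Of 5 genes of the ISG15 system, which attaches a ubiquitin-like protein to other proteins, 4 were at least 2-fold higher than TNF KO in cFLIP KO/TNF KO. Isg15, the modifier itself, had a log2 signal of 6.27 in cFLIP KO, 6.99 in cFLIP KO/TNF KO and 5.29 in TNF KO. Usp18, the protease that removes ISG15 and also blocks signalling at IFNAR2, had 6.16 in cFLIP KO, 7.82 in cFLIP KO/TNF KO and 5.33 in TNF KO. By difference from TNF KO it came second of the list in cFLIP KO/TNF KO, at 5.59-fold, and was 1.77-fold above TNF KO in cFLIP KO. Herc6, the ligase of ISG15 in mice, had 5.95 in cFLIP KO, 6.04 in cFLIP KO/TNF KO and 4.88 in TNF KO. Of the other steps, Ube2l6, the conjugating enzyme, differed from TNF KO by 0.23 in cFLIP KO epidermis and 1.10 in cFLIP KO/TNF KO, and Uba7, the activating enzyme, which was dim, by 0.19 and 0.21.

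Parp9, Dtx3l and Parp14 lie next to each other on chromosome 16, and all 3 were higher by at least 2-fold in cFLIP KO/TNF KO than in TNF KO. PARP9 and DTX3L form a complex that ubiquitinates histones, and PARP14 is an ADP-ribosyltransferase. Dtx3l had a log2 signal of 6.61 in cFLIP KO, 8.34 in cFLIP KO/TNF KO and 6.72 in TNF KO. Parp9 had 6.72 in cFLIP KO, 7.81 in cFLIP KO/TNF KO and 6.68 in TNF KO. As deposited, Dtx3l was at -0.11 and Parp9 at 0.04 relative to TNF KO in cFLIP KO, and the other scalings took them up to 0.37 and 0.54. Parp14 was further above TNF KO, with 6.67 in cFLIP KO, 7.32 in cFLIP KO/TNF KO and 5.78 in TNF KO.

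Among the remaining 6 genes, Xaf1, Ifi44, Trim30a and Ifi35 were higher by at least 2-fold in cFLIP KO/TNF KO than in TNF KO. Xaf1, which binds and opposes the apoptosis inhibitor XIAP, had a log2 signal of 4.71 in cFLIP KO, 6.57 in cFLIP KO/TNF KO and 4.50 in TNF KO. Ifi44 had 4.65 in cFLIP KO, 6.02 in cFLIP KO/TNF KO and 4.29 in TNF KO, and both genes thus passed 2-fold in cFLIP KO/TNF KO only. Trim30a, a ubiquitin ligase that restrains NF-kB signalling in mice, was highest in cFLIP KO, with 5.15 in cFLIP KO, 4.49 in cFLIP KO/TNF KO and 2.77 in TNF KO. Its TNF KO signal was the lowest of the list on any array and lay below the median of all values, so its differences are taken against a dim value. Ifi35 had 7.78 in cFLIP KO, 8.36 in cFLIP KO/TNF KO and 7.07 in TNF KO. Ifi27l2a (4.94 in cFLIP KO, 5.76 in cFLIP KO/TNF KO and 4.77 in TNF KO) was just short of 2-fold in cFLIP KO/TNF KO, and Samd9l (3.60, 4.05 and 3.70 in the same order) differed by 0.35 there.

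**Figure D4:**
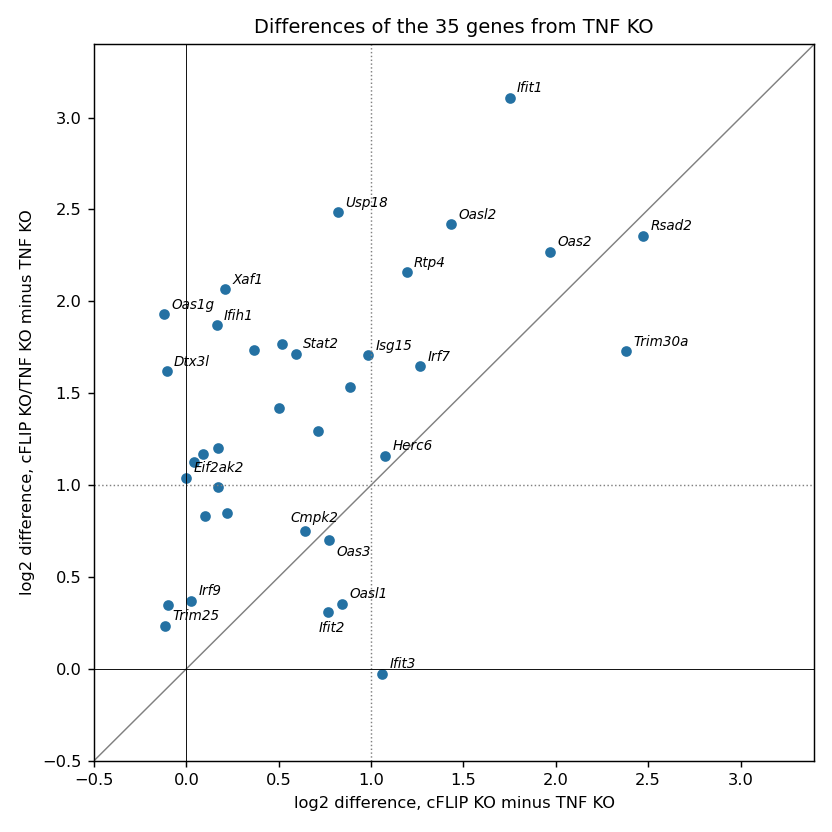
Log2 difference from TNF KO in cFLIP KO (x axis) and in cFLIP KO/TNF KO (y axis), 1 point per interferon gene; both axes share the TNF KO array, the dotted lines mark 2-fold and the diagonal marks equal differences. Usp18, Xaf1, Ifih1, Oas1g and Dtx3l lie far above the diagonal, Rsad2 and Cmpk2 close to it, and Ifit3, Oasl1, Ifit2 and Trim30a below it.

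The order of the 2 cFLIP-deficient genotypes held for some genes under every scaling tried and not for others. Usp18, Oas1g, Ifih1, Xaf1 and Dtx3l were lower by at least 2-fold in cFLIP KO epidermis than in cFLIP KO/TNF KO, both as deposited and under all 4 other scalings, and Ifit3 was at least 2-fold higher under all of them. As deposited, the differences were -1.66 for Usp18, -2.05 for Oas1g, -1.70 for Ifih1, -1.85 for Xaf1 and -1.73 for Dtx3l. Of the 13 genes at least 2-fold lower in cFLIP KO as deposited, Stat2, Parp9, Bst2 and Eif2ak2 were within 2-fold under all 4 others and stayed below 0. All 9 genes at least 2-fold higher in cFLIP KO epidermis than in TNF KO stayed so under the 4 other scalings. The same was true of 17 of the 24 in cFLIP KO/TNF KO. The 7 that did not stay past 2-fold were Oas1a, Ddx58, Dhx58, Parp9, Ifi35, Eif2ak2 and Herc6. These counts do not compare the sets, because Actb and reference genes shift all genes of a comparison by the same amount. The shifts were 0.04 and 0.30 in cFLIP KO minus TNF KO, so neither could bring a gene below 2-fold there. They were -0.52 and -0.04 in cFLIP KO/TNF KO minus TNF KO, toward 0 for the 24. In cFLIP KO minus cFLIP KO/TNF KO they were 0.56 and 0.34, toward 0 for the 13.

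The counts are read against the share of all named genes under the same setting. For genes at least 2-fold higher in cFLIP KO/TNF KO than in TNF KO, this share was 0.265% under Actb with 17 interferon genes, 0.59% under reference genes with 23, 0.647% after the lowess trend with 24 and 0.59% after repeated quantile normalization with 23. For cFLIP KO against TNF KO it was 4.26% under Actb with 10 interferon genes, 8.09% under reference genes with 16, 3.9% after the lowess trend with 12 and 4.25% after repeated quantile normalization with 14. For genes lower in cFLIP KO epidermis than in cFLIP KO/TNF KO it was 2.68%, 4.22%, 4.03% and 4.1% under these settings in turn, and for genes higher there 14.2%, 8.28%, 3.46% and 3.82%. The 4 interferon genes higher there under Actb were thus a smaller share of the list than of all genes. With thresholds of 1.5-fold and 3-fold as deposited, 10.7% and 1.14% of all genes were higher in cFLIP KO epidermis than in TNF KO. At the same thresholds 1.49% and 0.24% of all genes were higher in cFLIP KO/TNF KO, where 29 and 16 of the interferon genes were. In cFLIP KO against cFLIP KO/TNF KO, 10% and 0.814% were higher at these thresholds and 15.4% and 2.54% were lower.

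**Figure D5:**
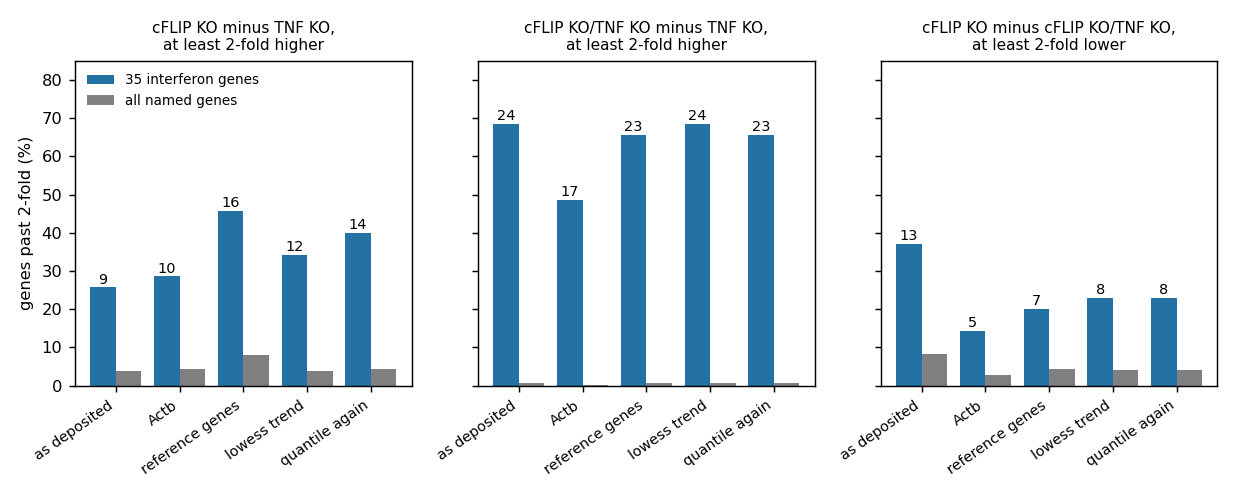
Share of genes past 2-fold in percent (y axis), for the 35 interferon genes (blue, number of genes above each bar) and all named genes (grey), as deposited and under 4 other scalings (x axis), in the 3 comparisons. The blue bar is above the grey one throughout, with 17 to 24 genes for cFLIP KO/TNF KO minus TNF KO and 5 to 13 lower genes for cFLIP KO minus cFLIP KO/TNF KO.

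Neighbouring genes of the list were alike in some places and unlike in others. On chromosome 5, Oas1g and Oas1a lie side by side, and both passed 2-fold above TNF KO in cFLIP KO/TNF KO and not in cFLIP KO, a difference that was not tested. Under Actb, Oas1a was at 0.64 in cFLIP KO/TNF KO. Oasl2 and Oasl1, also adjacent, differed in opposite directions, cFLIP KO minus cFLIP KO/TNF KO, with -0.98 for Oasl2 and 0.49 for Oasl1. The 13 genes with a match to the response element lay above TNF KO by a median of 0.59 in cFLIP KO epidermis and 1.71 in cFLIP KO/TNF KO. The 13 without a match in their window had medians of 0.64 in cFLIP KO epidermis and 1.16 in cFLIP KO/TNF KO. In cFLIP KO/TNF KO, 11 of the 13 with a match and 7 of the 13 without passed 2-fold above TNF KO, and the ranges, -0.03 to 3.11 with a match and 0.23 to 2.42 without, overlapped. For cFLIP KO minus cFLIP KO/TNF KO the medians were -1.04 with a match and -0.38 without. These differences were not tested.

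The genes of the interferons themselves stayed near their TNF KO signals in cFLIP KO/TNF KO. Of 21 such genes, 17 were measured, and 0 of them passed 2-fold in cFLIP KO/TNF KO against TNF KO, with differences of -0.18 to 0.17. Of all named genes, 0.635% were at least 2-fold higher there and 0.22% lower. Ifnb1, the interferon most cells make first, was listed at 2.79 on all 3 arrays, and Ifnk, the interferon that keratinocytes make at rest, at 3.06 on all 3. In cFLIP KO, 2 of the 17 were at least 2-fold higher than in TNF KO, against 3.87% of all named genes. They were Ifna4, with 6.31 in cFLIP KO, 5.18 in cFLIP KO/TNF KO and 5.30 in TNF KO, and Ifnz, with 6.87, 5.09 and 5.27 in the same order. Ifnl2, a type III interferon, had 7.02 in cFLIP KO, 5.97 in cFLIP KO/TNF KO and 6.13 in TNF KO. The interferon alpha genes are near-identical copies, so these rows may not be separate. As 10 of the 17 were dim on both arrays of each comparison, the arrays give little on most of these genes.

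Of the 9 receptor and kinase genes, 0 were at least 2-fold higher as deposited in either cFLIP-deficient genotype than in TNF KO. Ifnar1 was close to equal, with 7.63 in cFLIP KO and 7.76 in both other genotypes. Ifnar2 had 6.78 in cFLIP KO, 7.47 in cFLIP KO/TNF KO and 6.73 in TNF KO. Jak2, a kinase of other cytokine receptors including that of interferon gamma, differed from TNF KO by 0.71 in cFLIP KO epidermis and 0.94 in cFLIP KO/TNF KO. In cFLIP KO, Jak2 passed 2-fold under 3 of the 4 other scalings, with 1.00 under reference genes, 1.36 with the lowess trend removed and 1.41 with quantile normalization repeated. Ifngr2, a chain of that receptor, was at -1.17 in cFLIP KO epidermis and 0.13 in cFLIP KO/TNF KO. Its value in cFLIP KO became -0.87, -0.50 and -0.40 under those 3 scalings.

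Of the other transcription factors, Irf1 was higher in both genotypes by less than 2-fold, with 0.88 in cFLIP KO epidermis and 0.78 in cFLIP KO/TNF KO. Irf3, the factor activated directly by sensors, had 6.32 in cFLIP KO, 7.22 in cFLIP KO/TNF KO and 7.27 in TNF KO. Of 12 further sensors and adaptors, only Zbp1, a sensor of left-handed nucleic acid that can trigger necroptosis, was at least 2-fold higher, with 6.44 in cFLIP KO, 7.03 in cFLIP KO/TNF KO and 4.83 in TNF KO. The DNA sensor gene Cgas differed from TNF KO by -0.35 in cFLIP KO epidermis and 0.00 in cFLIP KO/TNF KO. Its adaptor Sting1 differed by 0.00 in cFLIP KO epidermis and 0.18 in cFLIP KO/TNF KO, and Tlr7 was listed at 3.26 on all 3 arrays.

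Negative regulators other than Usp18 did not share its pattern. Of 9 measured, 0 were higher by at least 2-fold in cFLIP KO/TNF KO than in TNF KO, and Socs3, an inhibitor of JAK kinases, was at least 2-fold higher in cFLIP KO, with 1.02 in cFLIP KO epidermis and 0.58 in cFLIP KO/TNF KO. Socs1 was listed at 4.94 on all 3 arrays. Pias1, Ptpn11 and Nlrc5, 3 of the 9, were lower by at least 2-fold in cFLIP KO epidermis than in TNF KO, against 9.2% of all named genes. Their differences were -1.81, -1.42 and -1.58. Ptpn11 was within 2-fold after the lowess trend (-0.93) and after repeated quantile normalization (-0.83).

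A second list of interferon-induced genes, none of them among the 35 but including Zbp1, Ube2l6 and Uba7 described above, ran the same way in cFLIP KO/TNF KO. It too was chosen with earlier results of these data known, so it is not independent support for the first list. Of 62 listed, 58 were measured. Of these, 21 were at least 2-fold higher than in TNF KO, against 0.635% of all named genes, and 0 were lower, against 0.22%. Their median difference was 0.67. In cFLIP KO, 9 of the 58 were at least 2-fold higher, against 3.87% of all named genes, and 2 were lower, against 9.2%. The median there was 0.21. Ifi204, a DNA-binding protein of the nucleus and cytoplasm, was the highest in cFLIP KO/TNF KO, with 4.94 in cFLIP KO, 6.71 in cFLIP KO/TNF KO and 3.39 in TNF KO. Parp12 had 7.03 in cFLIP KO, 8.86 in cFLIP KO/TNF KO and 6.90 in TNF KO. Gbp2, a GTPase that interferon gamma also induces, was high in both, with 7.52 in cFLIP KO, 7.76 in cFLIP KO/TNF KO and 5.47 in TNF KO. Cd274, which encodes PD-L1, was higher in cFLIP KO, with 7.23 in cFLIP KO, 6.00 in cFLIP KO/TNF KO and 5.26 in TNF KO. Many of these genes also respond to interferon gamma, so neither list measures type I interferon alone.

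Markers of other cells moved with some of these differences. In bulk RNA, a larger share of a cell type and more RNA per cell cannot be told apart. Of 10 fibroblast markers, 9 lay above TNF KO in cFLIP KO/TNF KO, against 23.1% of all named genes, with a median difference of 0.55. Of these 1, Vim, was at least 2-fold higher. Under Actb Vim was at 0.58, and Col1a1, Col1a2, Col3a1, Pdgfra and Fbln1 lay below TNF KO, as did 98.3% of all named genes. The mean log2 signal of the 10 was 8.81 in cFLIP KO, 9.62 in cFLIP KO/TNF KO and 9.09 in TNF KO. Of 9 monocyte and macrophage markers, 7 lay above TNF KO in cFLIP KO/TNF KO and 6 in cFLIP KO, against 23.1% and 46.7% of all named genes. Their mean log2 signal was 7.46 in cFLIP KO, 7.35 in cFLIP KO/TNF KO and 6.69 in TNF KO. Ly6c2 and Fcgr1, at least 2-fold higher in cFLIP KO/TNF KO, are themselves induced by interferon. The 10 Langerhans and dendritic cell markers averaged 6.80 in cFLIP KO, 7.39 in cFLIP KO/TNF KO and 7.08 in TNF KO. Their median difference in cFLIP KO/TNF KO was 0.11, 5 of the 10 were exactly equal to TNF KO, and Cd74, H2-Aa and H2-Ab1, which interferon gamma also induces, were at 0.76, 0.82 and 0.92. Neutrophil markers were highest in cFLIP KO, with a mean of 7.08 in cFLIP KO, 6.26 in cFLIP KO/TNF KO and 5.96 in TNF KO. Of 10 cornified layer genes, 9 were at least 2-fold below TNF KO in cFLIP KO, against 9.2% of all named genes, with a median of -2.56. In cFLIP KO/TNF KO 2 were, against 0.22%, with a median of -0.56. The part of these shifts in the interferon genes was not tested. Plasmacytoid dendritic cells, the strongest makers of type I interferon, were followed by 10 markers, of which 8 were listed at exactly equal values in cFLIP KO/TNF KO and TNF KO, as were 52.4% of all named genes. Siglech was at 3.60 on all 3 arrays, below the median of all values, and in cFLIP KO the largest differences of these markers from TNF KO were 0.93 for Cox6a2 and 0.72 for Pacsin1.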

How the data were processed

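Epidermal RNA of cFLIP KO, cFLIP KO/TNF KO and TNF KO mice was measured on 3 arrays, 1 per genotype, and samples were grouped by the genotype label. The values are log2 signals as deposited by the authors. Per the submitters' processing notes and the methods, the arrays were background-corrected and quantile-normalized (RMA), with probes summarised per ENTREZ gene by a custom chip definition. The deposited values still differed in distribution, with medians of 4.41 in cFLIP KO, 4.13 in cFLIP KO/TNF KO and 4.11 in TNF KO. Why they differed was not tested. The log base was inferred from the range of the values. The analysis of variance of the methods was not run, since 1 array per genotype leaves no residual error. The number of arrays limits the precision.

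Of 24973 values per array, 24015 were named by the platform table and 559 more, Ifi44 among them, by RefSeq through the ENTREZ row identifier, which matched the platform symbol in all 23922 rows found in both tables. Rows were averaged for 4 symbols that had more than 1, leaving 24570 genes. The members, gene lists and tests were chosen with earlier results of these data known. Every member and the ligands, receptors, kinases, transcription factors, sensors and regulators could be named, as could the 5 highest and 5 lowest of other lists. Cflar, Tnf and Actb served as checks.

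Differences of log2 values were counted past 2-fold. The same counts were made at 1.5-fold and 3-fold, without genes dimmer than the median of all values, after scaling to Actb or to the mean of 9 of 10 listed reference genes, after subtracting a lowess trend (share 0.3, 3 iterations), after a repeated quantile normalization, and with the brightest row of a symbol in place of the mean. The steps were tested on simulated data. A comparison of member proteins was planned but not run. Software was matplotlib 3.10.9, statsmodels 0.14.6, numpy 2.4.6, pandas 2.3.3 and Python 3.11.15.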

Additional observations from a re-analysis of the deposited data

Results flagged for a closer look

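For 3 of the 35 interferon genes, cFLIP KO and cFLIP KO/TNF KO lay on opposite sides of TNF KO and at least 2-fold apart. The difference between the genotypes was not tested, because each has 1 array. Ifit3 was at 1.06 in cFLIP KO epidermis and -0.026 in cFLIP KO/TNF KO, in log2 difference from TNF KO. Oas1g was at -0.12 in cFLIP KO epidermis and 1.93 in cFLIP KO/TNF KO. Dtx3l was at -0.11 in cFLIP KO epidermis and 1.62 in cFLIP KO/TNF KO. The side in cFLIP KO turned with the scaling for 2 of them: Dtx3l lay above TNF KO under 3 of the 4 other scalings, up to 0.37, and Oas1g, dim on both arrays, under 1, at 0.18.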

How the results depend on the processing

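With a threshold of 1.5-fold, 18 genes were higher in cFLIP KO epidermis than in TNF KO, and 2 were higher and 21 lower in cFLIP KO epidermis than in cFLIP KO/TNF KO. With 3-fold these numbers were 4, 0 and 5. Scaling by reference genes gave 16 and repeated quantile normalization 14 genes at least 2-fold higher in cFLIP KO epidermis than in TNF KO, against 9 as deposited. The shares of all named genes were 8.09% and 4.25%, against 3.87% as deposited. For cFLIP KO minus cFLIP KO/TNF KO, scaling by Actb gave 4 higher and 5 lower, scaling by reference genes 7 lower, and the lowess trend and repeated quantile normalization 8 lower each, against 1 and 13 as deposited. The shares of all named genes lower were 2.68%, 4.22%, 4.03% and 4.1% in this order, against 8.14% as deposited. The share higher was 14.2% under Actb, against 3.29% as deposited. The number at least 2-fold higher in cFLIP KO/TNF KO than in TNF KO stayed within 1.5 times of 24 under all of these alternatives, with 16 at 3-fold (0.24% of all genes), 29 at 1.5-fold (1.49%) and 17 under Actb (0.265%). The median differences kept their sign under all of them, with the median of cFLIP KO minus cFLIP KO/TNF KO at -0.73 as deposited and -0.17 under Actb. Scaling by Actb moved the median of all genes to -0.52 for cFLIP KO/TNF KO minus TNF KO and to 0.56 for cFLIP KO minus cFLIP KO/TNF KO, and scaling by reference genes moved it to 0.30 for cFLIP KO minus TNF KO. No paired analysis was possible because each genotype has 1 array. The cause of these shifts was not tested. Signal over background limits Mx1, Mx2, Oas1a and Samd9l, which were dim on all 3 arrays, Oas1g in cFLIP KO and TNF KO, Ifit2 in cFLIP KO/TNF KO and TNF KO, and Trim30a and Oasl1 in TNF KO.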

Other observations

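Relatives of the interferon genes that are not on the list mostly lay near TNF KO. Of 19 measured paralogs, 1, Parp12, was at least 2-fold higher in cFLIP KO/TNF KO than in TNF KO, against 0.635% of all named genes. On both of these arrays 13 were dim. Oas1f, a relative of Oas1a and Oas1g, was bright and had a log2 signal of 6.81 in cFLIP KO, 9.79 in cFLIP KO/TNF KO and 9.77 in TNF KO. In cFLIP KO epidermis it stood at -2.96 relative to TNF KO on the log2 scale, whereas 0 of the 35 genes passed 2-fold in that direction. Slfn9 and Pnpt1, from the second list of interferon-induced genes, also lay below TNF KO in cFLIP KO epidermis, at -1.98 and -1.16 on the log2 scale.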
